A study of Mus musculus with 8 samples.

Results

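Hepatic transporters of organic anions and drugs were followed in mouse liver RNA-seq across genotype and diet. The genes were 4 uptake carriers of the Slco family (Slco1a1, Slco1a4, Slco1b2 and Slco2b1) and 6 efflux pumps of the Abc family (Abcc2, Abcc3, Abcc4, Abcc6, Abcg2 and Abcb1a). They were taken by gene symbol, which gave 10 of the 19267 genes in the count table. All 10 passed the filter on low counts, as did 13993 of the 19267 genes.

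Male C57BL/6 mice, 6 weeks old at the start, received a Lieber-DeCarli liquid diet for 21 days and were 9 weeks old at sampling. The EtOH diet held alcohol at 5% (w/v), and the Control diet replaced its calories with maltose dextrin. Elf4-/- denotes Elf4fl/fl mice with Cre under the Vil1 (villin) promoter, so the gene is deleted in the intestinal epithelium and not by design in the liver, and the WT mice carried the Cre as well. Crossing genotype and diet gave 4 groups of 2 libraries each, named WT or Elf4-/- followed by Control or EtOH. The labels do not say whether each library came from 1 mouse, so p-values measure the spread between libraries.

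The Slco genes encode OATP carriers, which sit in the sinusoidal membrane and bring bile acids, bilirubin conjugates, steroid conjugates and drugs from blood into the hepatocyte. Abcc2 (MRP2), Abcg2 (BCRP) and Abcb1a (P-glycoprotein) are ATP-driven pumps that export conjugates and drugs into bile, whereas Abcc3 (MRP3), Abcc4 (MRP4) and Abcc6 (MRP6) lie in the basolateral membrane and face the blood. In the mouse liver Slco1a1 is known as a male-predominant gene, and Slco1a4 and Abcc4 as female-predominant genes.

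Slco1a1, Slco1a4 and Slco1b2 are neighbours on chromosome 6. In GRCm38 Slco1b2 spans chr6:141629518-141686646 on the plus strand, Slco1a4 spans chr6:141805440-141856199 on the minus strand and Slco1a1 spans chr6:141907282-141946962 on the minus strand. Abcg2 lies on the same chromosome at chr6:58584523-58695676 (plus strand). Slco2b1 is at chr7:99657804-99711340 and Abcc6 at chr7:45967555-46030302, both on the minus strand. Abcc2 is at chr19:43782192-43840740 and Abcb1a at chr5:8660077-8748575, both on the plus strand. Abcc3 is at chr11:94343295-94392997 and Abcc4 at chr14:118482692-118706219, both on the minus strand. Identical stretches of 100 bases shared with another gene made up 0.614% of such stretches in the transcripts of Slco1a1, 0.640% in Slco1a4 and 9.23% in Abcb1a, where the other genes were Abcb1b and Abcb4. The other 7 genes shared none. Slco2b1, Abcc4, Abcc6 and Abcb1a overlap genes on the opposite strand, and how the counting treated strand is not given in the sources used here.

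The results turn on Slco1a1, Slco1a4 and Abcc4, so the 250 bases before their transcription start are shown, 5′ to 3′ on the strand of the gene (RefSeq, GRCm38.p6, 8 of the 10 genes had an entry). Capitals mark matches, on either strand, to TGACNNNGC (core of the antioxidant response element), GCGTG (core of the xenobiotic response element), TTCNNNGAA (STAT element) or AGGTCA (element of many nuclear receptors). The stretches lie at chr6:141946963-141947212 (Slco1a1), chr6:141856221-141856470 (Slco1a4) and chr14:118706220-118706469 (Abcc4, the more upstream of 2 listed starts), each on the minus strand.
Slco1a1: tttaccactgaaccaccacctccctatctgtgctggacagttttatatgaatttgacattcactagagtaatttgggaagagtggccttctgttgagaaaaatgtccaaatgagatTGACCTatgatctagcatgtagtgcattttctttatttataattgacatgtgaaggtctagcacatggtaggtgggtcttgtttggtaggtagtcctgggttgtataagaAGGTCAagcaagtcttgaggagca
Slco1a4: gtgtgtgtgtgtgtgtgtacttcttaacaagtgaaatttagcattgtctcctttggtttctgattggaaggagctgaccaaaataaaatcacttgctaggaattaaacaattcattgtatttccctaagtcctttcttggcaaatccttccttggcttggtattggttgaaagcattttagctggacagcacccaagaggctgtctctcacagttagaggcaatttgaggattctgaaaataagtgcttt
Abcc4: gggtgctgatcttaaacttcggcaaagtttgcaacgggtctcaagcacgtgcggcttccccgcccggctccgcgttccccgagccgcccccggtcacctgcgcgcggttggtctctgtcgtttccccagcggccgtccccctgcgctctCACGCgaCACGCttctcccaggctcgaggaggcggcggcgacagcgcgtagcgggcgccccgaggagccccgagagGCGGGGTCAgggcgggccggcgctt
Slco1a1 held 2 matches to AGGTCA and Slco1a4 held no match to any of the 4 motifs. Abcc4 held 1 match to TGACNNNGC and 2 to GCGTG, within a stretch of 72.0% G and C against 40.4% for Slco1a1 and 39.2% for Slco1a4. The other strand of AGGTCA can begin a TGACNNNGC match, which was the case in none of the 3 stretches. Among 32851 promoter stretches of the same length, 10.2% held TGACNNNGC, 28.2% GCGTG, 7.02% TTCNNNGAA and 14.0% AGGTCA. A match is a description of letters, not of a bound site.

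The libraries held 6171051 to 9157362 counts. All 8 hepatocyte markers examined were present in every library, and the level of Elf4 was 6 to 36 counts, so its liver counts do not check the intestinal deletion. Mitochondrial genes took 23.4% and 33.7% of the counts under Control and 10.8% and 12.5% under EtOH in WT, and 18.3% to 22.1% in the Elf4-/- libraries. Their part in the results was not tested. Elf4-/- EtOH replicate 1 stood apart from the other 7 libraries on the second principal component. Values are CPM, counts scaled to a common library size with TMM, and a gene is said to rise or fall where the Benjamini-Hochberg adjusted p of edgeR's quasi-likelihood test over all 13993 genes was under 0.05. Fold changes are given on the log2 scale with their standard error, and group means with their SD (n = 2).

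Levels were compared between genes per kilobase of exon. In WT-Control the order ran from Slco1b2 (221 ± 4.62 CPM per kb) through Abcc2 (83.5 ± 0.861), Abcc6 (73.6 ± 2.19), Slco1a1 (57.6 ± 9.18), Abcc3 (25.5 ± 15.04), Slco2b1 (22.6 ± 3.004), Slco1a4 (11.3 ± 2.20) and Abcg2 (10.1 ± 0.0657) down to Abcb1a (0.186 ± 0.121) and Abcc4 (0.116 ± 0.0831). The libraries of Abcc3 and Slco2b1, of Slco1a4 and Abcg2, and of Abcb1a and Abcc4 overlapped, so these neighbours were not separated. Slco1b2 ranked first in each of the 4 groups. Slco1a1 was 4th in WT-Control and 6th in WT-EtOH, where its libraries overlapped those of Slco2b1 and Abcg2. It was 3rd in Elf4-/- Control, overlapping Abcc2 and Abcc6, and 7th in Elf4-/- EtOH, overlapping Slco1a4, Slco2b1 and Abcg2. Abcc4 moved from the last place to the 8th in WT-EtOH and from the last to the 9th in Elf4-/- EtOH.

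**Figure D1:**
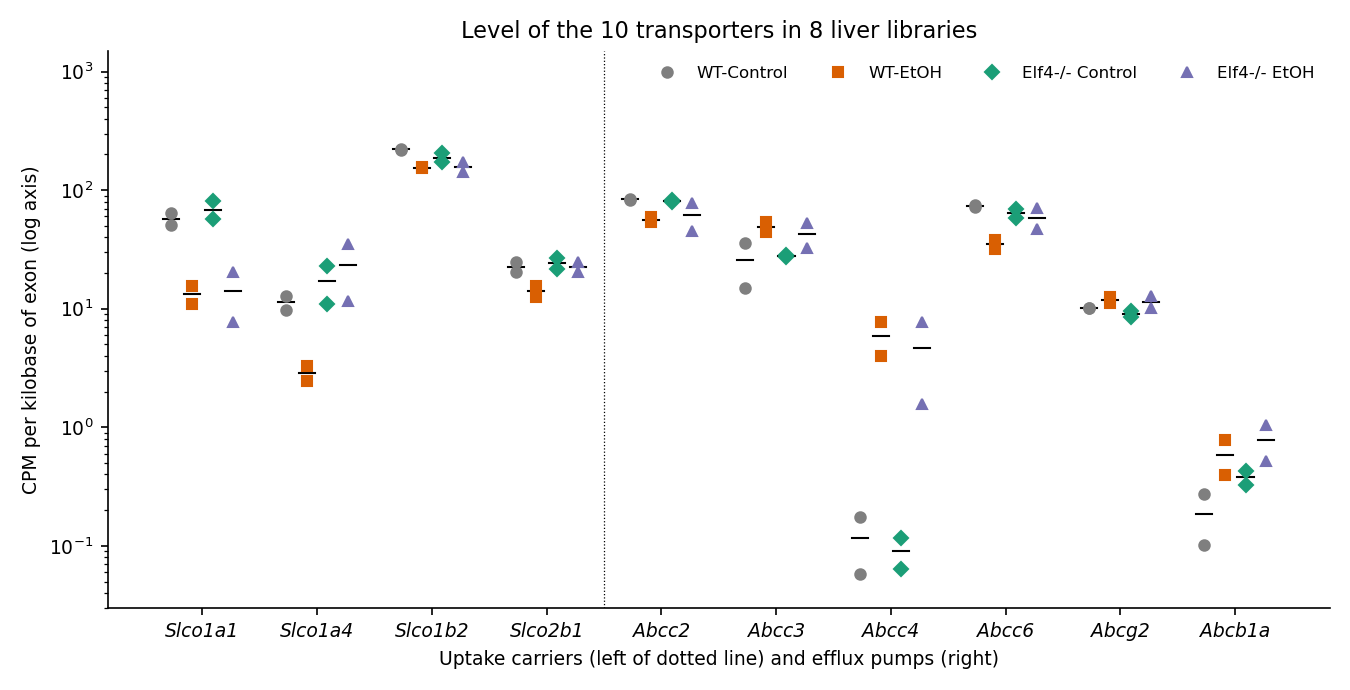
Level of each transporter in CPM per kilobase of exon (log axis) in the 8 libraries. Each point is a library, black lines are group means, and the dotted line separates the 4 uptake carriers from the 6 efflux pumps. Abcc4 lay at 0.0576 to 0.175 in the Control libraries and at 1.58 to 7.78 in the EtOH libraries.

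The first question was how the EtOH diet changed the transporters in WT livers. Slco1a1, Slco1a4 and Abcc6 fell and Abcc4 rose, while Slco1b2, Slco2b1, Abcc2, Abcc3, Abcg2 and Abcb1a did not pass the threshold. The 3 lower genes stood against 10.8% of all genes tested that fell, and the 1 higher gene against 10.8% that rose. The groups did not overlap for any of the 10 transporters, which was also the case for 66.8% of all genes. A lower level in whole liver can stem from fewer cells of a type or from less RNA per cell, and the libraries cannot tell these apart.

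Slco1a1, the carrier OATP1A1, had 338 and 269.6 CPM in WT-Control and 82.6 and 58.0 CPM in WT-EtOH. Both WT-EtOH libraries lay far below both WT-Control libraries. The fall was 4.32-fold (log2 -2.11 ± 0.41, adjusted p = 0.00817, edgeR). Slco1a4, the carrier OATP1A4, had 62.6 and 82.6 CPM in WT-Control and 21.1 and 15.9 CPM in WT-EtOH. It fell 3.93-fold (log2 -1.97 ± 0.50, adjusted p = 0.0222, edgeR), a size close to that of its neighbour. Both Slco1a genes therefore went down together in WT.

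Slco1b2, the carrier OATP1B2 that takes up bilirubin and unconjugated bile acids, had 1073 and 1106 CPM in WT-Control and 777.6 and 752 CPM in WT-EtOH. Its log2 difference of -0.51 ± 0.24 did not pass (adjusted p = 0.152, edgeR). Slco2b1, the carrier OATP2B1, had 147.3 and 122.0 CPM in WT-Control and 75.2 and 92.2 CPM in WT-EtOH. Its difference of -0.68 ± 0.22 lay just outside the threshold (adjusted p = 0.0522, edgeR). All 4 uptake carriers thus had negative values, with a median log2 difference of -1.33 against 0.01 over all genes tested.

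Abcc4, which exports conjugates and bile acids back to the blood, had 1.12 and 0.368 CPM in WT-Control and 25.5 and 49.7 CPM in WT-EtOH. These were 6 and 2 counts in the Control libraries and 202 and 488 counts in the EtOH libraries. The gene went from a few counts to a readily counted level, a 49.8-fold rise (log2 5.64 ± 0.89, adjusted p = 0.00365, edgeR). Without WT-Control replicate 1 the comparison rests on 2 counts, and the CPM ratio was 105.8 with an exact 95% counting interval of 29.2 to 875.4. Without WT-Control replicate 2 it rests on 6 counts, and the ratio was 34.8 (15.9 to 95.2). These intervals cover counting alone and not the spread between libraries.

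Abcc6, a basolateral pump involved in ATP release from hepatocytes, had 412.2 and 430.0 CPM in WT-Control and 183.0 and 216.0 CPM in WT-EtOH. It fell 2.11-fold (log2 -1.08 ± 0.25, adjusted p = 0.0166, edgeR), against the rise of Abcc4 in the same membrane. Abcc3, also on the blood side, had 206.0 and 84.8 CPM in WT-Control and 250.9 and 309.3 CPM in WT-EtOH (log2 0.95 ± 0.38, adjusted p = 0.103, edgeR). The WT-Control libraries of Abcc3 lay far apart. The log2 difference was 1.72 without replicate 1 and 0.44 without replicate 2, each with 1 library left in that group.

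Of the canalicular pumps, Abcc2 had 717.5 and 707.1 CPM in WT-Control and 504.8 and 459.0 CPM in WT-EtOH (log2 -0.56 ± 0.28, adjusted p = 0.172, edgeR). Abcg2 had 82.0 and 82.8 CPM in WT-Control and 90.8 and 103.3 CPM in WT-EtOH (log2 0.24 ± 0.20, adjusted p = 0.413, edgeR). Abcb1a was counted 8 and 3 times in WT-Control and 17 and 42 times in WT-EtOH, or 1.49, 0.552, 2.15 and 4.28 CPM (log2 1.65 ± 0.66, adjusted p = 0.101, edgeR). None of the canalicular pumps passed, and 4 of the 6 efflux pumps had positive values, with a median of 0.59.

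Scaling changed part of this picture. With library totals in place of TMM, the median log2 difference of all genes between the diets in WT was 0.44 in place of 0.01, and 3422 genes rose and 634 fell in place of 1518 and 1507. Slco1a1 (-1.68), Slco1a4 (-1.55) and Abcc4 (6.08) were still called, Abcc6 (-0.64) was not, and Abcc3 (1.40), Abcg2 (0.67) and Abcb1a (2.10) passed. With this scaling no transporter changed sign in either diet comparison. The calls of Slco1a4 and Abcc6 were lost without any 1 of the 4 WT libraries, and that of Slco1a1 without WT-EtOH replicate 2 (adjusted p = 0.0828, edgeR), while Abcc4 was called each time. A group left with 1 library was assumed to vary like the others.

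**Figure D2:**
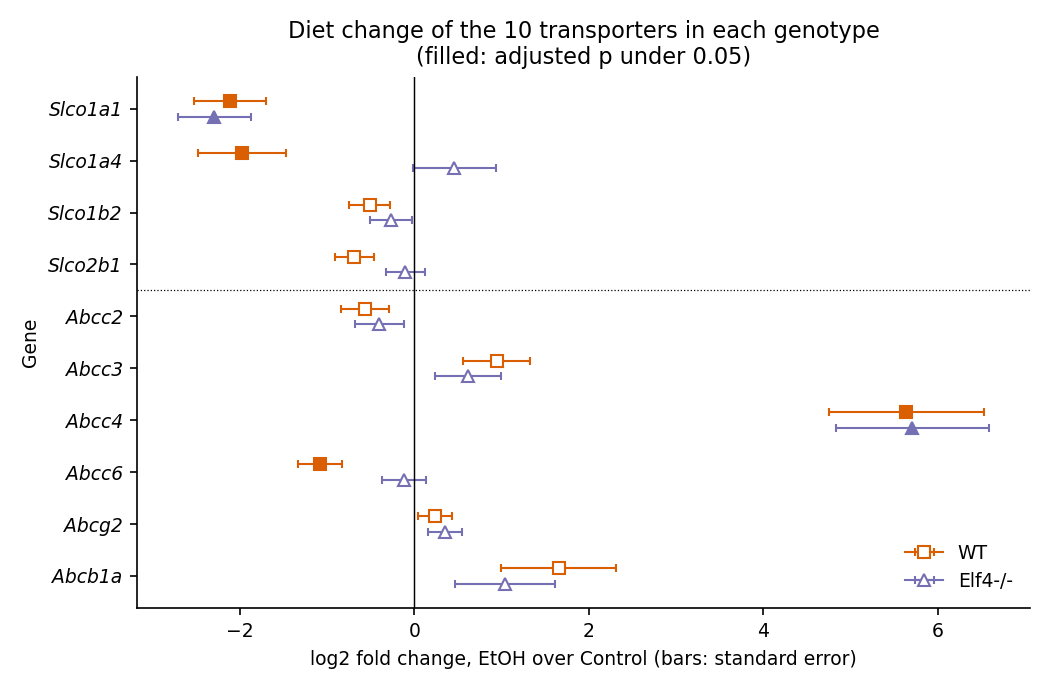
log2 fold change between the EtOH and Control diets (horizontal axis, bars are standard errors) of the 10 transporters in WT (squares) and Elf4-/- (triangles). Filled symbols have an adjusted p under 0.05 (edgeR). Slco1a1 lay at -2.11 and -2.29 and Abcc4 at 5.64 and 5.71, whereas Slco1a4 lay at -1.97 in WT and 0.46 in Elf4-/-.

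The same diet comparison was made in Elf4-/- mice. Slco1a1 fell and Abcc4 rose, and the other 8 transporters did not pass (smallest adjusted p = 0.325, edgeR). In this comparison 1.18% of all genes fell and 1.71% rose. The groups did not overlap for 6 of the 10 transporters, against 52.2% of all genes.

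Slco1a1 had 300.8 and 423.8 CPM in Elf4-/- Control and 40.6 and 107.1 CPM in Elf4-/- EtOH. Both EtOH libraries were lower, with replicate 1 the lowest of the 8 libraries. The fall was 4.90-fold (log2 -2.29 ± 0.42, adjusted p = 0.0273, edgeR). Abcc4 had 0.410 and 0.746 CPM (4 and 5 counts) in Elf4-/- Control and 49.7 and 10.1 CPM (312 and 76 counts) in Elf4-/- EtOH. It rose 52.3-fold (log2 5.71 ± 0.88, adjusted p = 0.0162, edgeR), and the 2 EtOH libraries differed widely from each other. On the log2 scale its change was 4.15 when Elf4-/- EtOH replicate 1 was left out and 6.43 when replicate 2 was left out, and that of Slco1a1 was -3.17 when replicate 2 was left out. Neither gene was called without either of the Elf4-/- Control libraries (adjusted p = 0.114 to 0.203, edgeR).

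Slco1a4 was not called in Elf4-/-. It had 70.1 and 147.8 CPM in Elf4-/- Control and 225.4 and 74.3 CPM in Elf4-/- EtOH, so the groups overlapped and each spread widely. The log2 difference was 0.46 ± 0.47 (adjusted p = 0.616, edgeR) and turned to -0.55 without Elf4-/- EtOH replicate 1. Slco1b2 (844.2 and 1009 CPM in Control, 845.1 and 697.1 CPM in EtOH) and Slco2b1 (130.0 and 158.3 CPM in Control, 148.2 and 120.5 CPM in EtOH) also overlapped.

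Abcc6 had 333 and 397.7 CPM in Elf4-/- Control and 404.4 and 268.5 CPM in Elf4-/- EtOH, a log2 difference of -0.12 ± 0.25 (adjusted p = 0.823, edgeR). Abcc2 had 683.8 and 700.8 CPM in Control and 666.4 and 384.4 CPM in EtOH (log2 -0.40 ± 0.28). Abcc3 had 155.7 and 162.6 CPM in Control and 300.9 and 186.9 CPM in EtOH (log2 0.62 ± 0.38). The EtOH and Control libraries of Abcc2, Abcc3, Abcg2 and Abcb1a did not overlap, yet none passed the test. Abcg2 had 69.3 and 77.6 CPM in Control and 82.7 and 104.2 CPM in EtOH (log2 0.35 ± 0.20). Abcb1a had 2.36 and 1.79 CPM in Control and 2.87 and 5.70 CPM in EtOH (log2 1.04 ± 0.57). The 4 uptake carriers had a median log2 difference of -0.18 and the 6 pumps of 0.48, against 0.01 over all genes.

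With the diet change averaged over both genotypes, Slco1a1 (log2 -2.20 ± 0.29) and Abcc6 (-0.60 ± 0.18) fell and Abcc4 (5.67 ± 0.63) and Abcb1a (1.35 ± 0.44) rose, with adjusted p of 0.00105, 0.0322, 0.000568 and 0.0448 (edgeR). In this comparison 13.8% of all genes fell and 14.1% rose. The calls of Abcc6 and Abcb1a sat close to the threshold and were each lost in 6 of the 8 fits that left out 1 library. Abcc4 was at 4.90 without Elf4-/- EtOH replicate 1. Slco1a4 had -0.76 ± 0.34 (adjusted p = 0.124, edgeR), and -1.26 without Elf4-/- EtOH replicate 1.

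The next comparison set Elf4-/- against WT under the EtOH diet. None of the 10 transporters passed in edgeR, against 0.143% of all genes. An unadjusted p under 0.05 was found for 865 genes higher and 605 lower of the 13993 tested, and for 3 transporters. These were Slco1a4, Slco2b1 and Abcc6, the same 3 whose libraries did not overlap (41.3% of all genes did not overlap). Slco1a4 was 15.9 and 21.1 CPM in WT-EtOH and 74.3 and 225.4 CPM in Elf4-/- EtOH, a log2 difference of 3.02 ± 0.52 (95% interval 1.87 to 4.17, adjusted p = 0.0755). DESeq2 called 1 transporter, Slco1a4 (adjusted p = 6.19e-09), against 1.31% of the genes it tested. edgeR called it without the filter on low counts (adjusted p = 0.0140), and without either Elf4-/- EtOH library, at 2.02 without replicate 1 (adjusted p = 0.0298) and 3.60 without replicate 2 (adjusted p = 0.00052).

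Slco2b1 differed by 0.68 ± 0.22 (adjusted p = 0.313) and Abcc6 by 0.75 ± 0.25 (adjusted p = 0.330) in edgeR, both higher in Elf4-/- EtOH. The other 7 transporters overlapped between the genotypes, with adjusted p of 0.852 or more. Under the Control diet, none of the 10 passed in edgeR or DESeq2, against 0.0143% of all genes called by edgeR. None had an unadjusted p under 0.05, against 612 genes higher and 411 lower of the 13993 tested. Slco1a4 differed by 0.58 there (95% interval -0.48 to 1.65), and by -0.047 without Elf4-/- Control replicate 2.

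Whether the diet change itself differed between the genotypes was tested by the interaction. In edgeR 0 of the 10 transporters and 0% of all genes passed. An unadjusted p under 0.05 was found for 2 transporters, and for 691 genes above 0 and 720 below 0 of the 13993 tested. Slco1a4 had a difference between its diet changes of 2.43 ± 0.69 (95% interval 0.90 to 3.97, adjusted p = 0.310, edgeR). DESeq2 called it (adjusted p = 0.0113), as 1 transporter against 1.26% of the genes that DESeq2 tested. Without Elf4-/- EtOH replicate 1 the difference was 1.43 and was not called (adjusted p = 0.226, edgeR). Abcc6 had 0.96 ± 0.36 (95% interval 0.17 to 1.75, adjusted p = 0.416, edgeR). For Slco1a1 the difference was -0.18 (95% interval -1.43 to 1.08) and for Abcc4 0.07 (95% interval -2.95 to 3.09, and of the other sign with library totals in place of TMM). Both intervals span differences in either direction. The interaction uses the same libraries as the other comparisons and is no separate evidence for them.

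The ratio of Slco1a1 to Slco1a4 counts within a library does not depend on scaling. It was 2.87 to 5.396 in the 6 libraries outside Elf4-/- EtOH. In Elf4-/- EtOH it was 0.180 in replicate 1 and 1.44 in replicate 2, below all other libraries. Slco1a1 thus made up 74.1% to 84.4% of the counts of the pair in the 6 libraries and 15.3% and 59.0% in Elf4-/- EtOH.

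**Figure D3:**
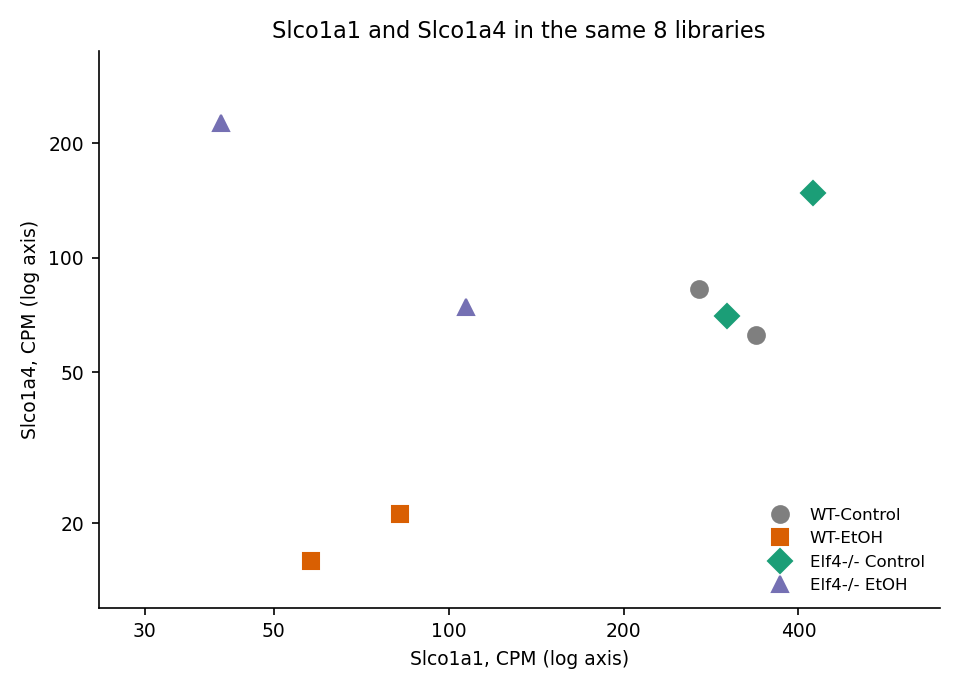
Slco1a1 (horizontal) against Slco1a4 (vertical) in CPM on log axes, 1 point per library. WT-EtOH lay low on both axes (58.0 and 82.6 CPM of Slco1a1, 15.9 and 21.1 CPM of Slco1a4), and Elf4-/- EtOH lay low on Slco1a1 with 74.3 and 225.4 CPM of Slco1a4.

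Uptake and efflux genes were set against each other by a score per library, the mean of the log2 CPM of the 4 carriers or the 6 pumps after each gene was centred on its mean over the 8 libraries. The uptake score minus the efflux score averaged 0.97 ± 0.38 under Control and -1.41 ± 0.41 under EtOH in WT, and 1.02 ± 0.29 under Control and -0.59 ± 0.22 under EtOH in Elf4-/- (SD, n = 2). Each EtOH library lay below each Control library. The change with diet was -2.38 in WT and -1.61 in Elf4-/-. Abcc4 carried part of it, and without this gene the changes were -1.54 and -0.86. The uptake score alone was -0.91 ± 0.12 in WT-EtOH and -0.06 ± 0.14 in Elf4-/- EtOH, while the efflux score was 0.50 ± 0.29 and 0.53 ± 0.36. Without Abcc4 the efflux score was 0.028 ± 0.21 in WT-EtOH against -0.20 ± 0.33 in WT-Control, with overlapping libraries, and 0.21 ± 0.11 in Elf4-/- EtOH against -0.037 ± 0.023 in Elf4-/- Control. The scores were not tested, since the genes were chosen with results of these data known.

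**Figure D4:**
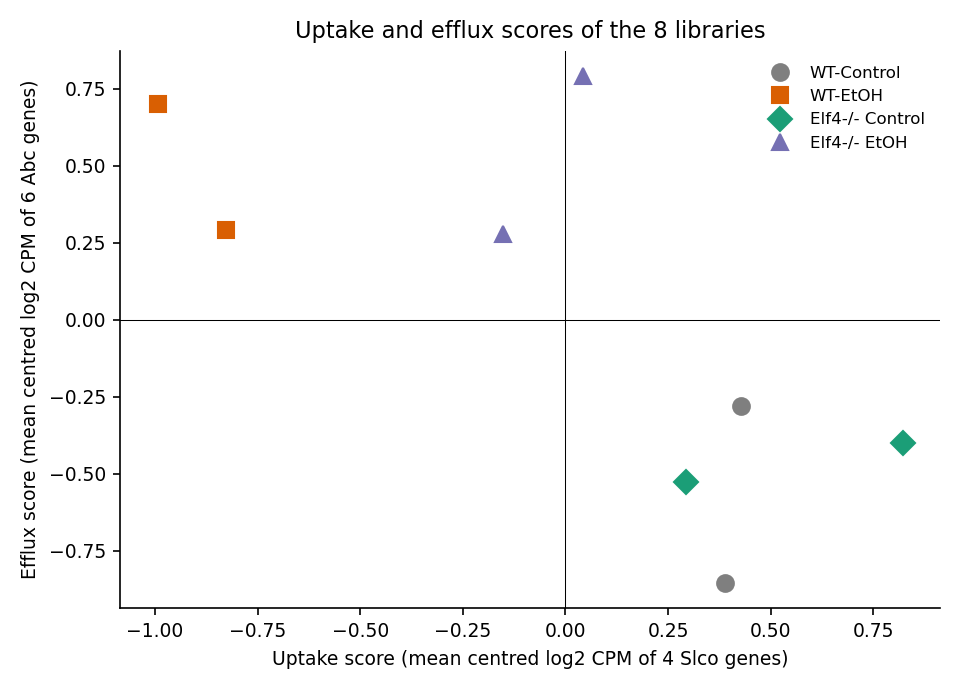
Uptake score (horizontal) against efflux score (vertical), each a mean of centred log2 CPM, 1 point per library. The Control libraries lay at high uptake and low efflux scores, the WT-EtOH libraries at the lowest uptake scores (mean -0.91), and the Elf4-/- EtOH libraries near an uptake score of 0 (mean -0.06).

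Summed over genes, the 4 carriers reached 1621 and 1580 CPM under Control and 956.5 and 918.1 CPM under EtOH in WT. In Elf4-/- they reached 1345 and 1739 CPM under Control and 1259 and 998.9 CPM under EtOH. The 6 pumps summed to 1420 and 1306, 1057 and 1142, 1245 and 1341, and 1507 and 959.7 CPM in the same order. With TMM both sums were lower under EtOH in WT, with the differences of Abcc2 and Abcc6 larger in CPM than that of Abcc4. Library totals moved the log2 diet difference in WT to -0.13 for Abcc2 and -0.64 for Abcc6, from -0.56 and -1.08. That of Abcc3 went from 0.95 to 1.40. The sums were not computed with library totals, so the lower pump sum is stated for TMM only. These sums weight long transcripts more.

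Across the 8 libraries, and so across groups as well, Slco1a1 and Abcc4 had a Pearson correlation of log2 CPM of -0.96. Slco2b1 correlated with Abcc6 at 0.91 and with Slco1a4 at 0.87, and Slco1a1 with Slco1a4 only at 0.24. Compared with the 9398 genes that averaged 50 or more counts, those most like Slco1a1 were Serpina1e (r = 0.991), Samd1 (0.986) and Mup20 (0.985), and those most like Abcc4 were Entpd5 (0.998), Tmem33 (0.992) and Ppp1ca (0.990). The genes like Slco1a4 included Bhmt (0.973) and Plscr2 (0.963), and Abcc6 was most like Reps1 (0.979), Pafah2 (0.977) and Plppr2 (0.971). Abcb1a was most like Gata4 (0.953), Cbx6 (0.947) and Ipo7 (0.945). These values describe 8 libraries that share the diet contrast.

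Other carriers and pumps of the liver moved in both directions. Of 12 further uptake carriers tested, 3 rose and 4 fell in WT and 2 rose in Elf4-/-, with median log2 differences of -0.36 and 0.14. Over all genes 10.8% rose and 10.8% fell in WT, and 1.71% rose and 1.18% fell in Elf4-/-. With library totals in place of TMM, 4 of these carriers rose and 2 fell in WT. Slc22a27, an organic anion carrier, rose from 0.464 ± 0.135 to 9.23 ± 4.82 CPM in WT and from 0.783 ± 0.0524 to 29.98 ± 9.00 CPM in Elf4-/- (log2 4.28 and 5.22, adjusted p = 0.00248 and 0.00197, edgeR). Slc22a28 fell in WT from 29.3 ± 1.58 to 2.02 ± 0.546 CPM (adjusted p = 0.0128, edgeR), and Slc22a7, the anion carrier OAT2, from 44.9 ± 1.80 to 7.76 ± 6.37 CPM (adjusted p = 0.0251, edgeR). The bile acid carrier Slc10a1 (NTCP) had 0.21 ± 0.28 in WT and was not called (adjusted p = 0.619, edgeR).

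Of 17 further genes listed for efflux, 4 rose and 4 fell in WT and 1 fell in Elf4-/-, with medians of 0.06 and 0.03. The shares of all genes were the same as above (10.8% each way in WT, 1.71% higher and 1.18% lower in Elf4-/-). With library totals 5 rose and 3 fell in WT. Abcg1 and Abcc9 rose in WT (log2 1.88 and 1.75, adjusted p = 0.00556 and 0.0171, edgeR). Abcc9 is listed by its family but encodes a channel subunit and no pump. Slc51a, a subunit of the basolateral bile acid exporter, rose from 12.1 ± 1.33 to 36.7 ± 2.39 CPM (adjusted p = 0.00182, edgeR). The bile salt export pump Abcb11 fell from 770.7 ± 88.7 to 329.5 ± 94.4 CPM (adjusted p = 0.0115, edgeR) and Atp8b1, a lipid flippase of the canalicular membrane, by 1.55 on the log2 scale (adjusted p = 0.00956, edgeR). Abcg5, a subunit of the sterol exporter, fell in both genotypes (log2 -1.46 and -1.10, adjusted p = 0.00445 and 0.0437, edgeR).

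Of 16 transcription factors and partners known to control transporters, 2 fell in WT and 1 in Elf4-/-, and none rose. The share that fell in WT was near the 10.8% of all genes, and 1.18% of all genes fell in Elf4-/-. Bcl6, a repressor of female-biased liver genes, fell from 201.3 ± 23.6 to 18.8 ± 6.85 CPM in WT and from 176.1 ± 19.5 to 41.6 ± 22.5 CPM in Elf4-/- (log2 -3.42 and -2.08, adjusted p = 0.00147 and 0.0254, edgeR). Nr0b2 (SHP), which mediates bile acid feedback, fell in WT (log2 -1.44, adjusted p = 0.0107, edgeR). The xenobiotic receptors Nr1i2 (PXR), Nr1i3 (CAR) and Ahr and the oxidative stress factor Nfe2l2 (NRF2) did not pass in either genotype. With library totals in place of TMM, 5 of the 16 rose in WT and 2 fell.

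**Figure D5:**
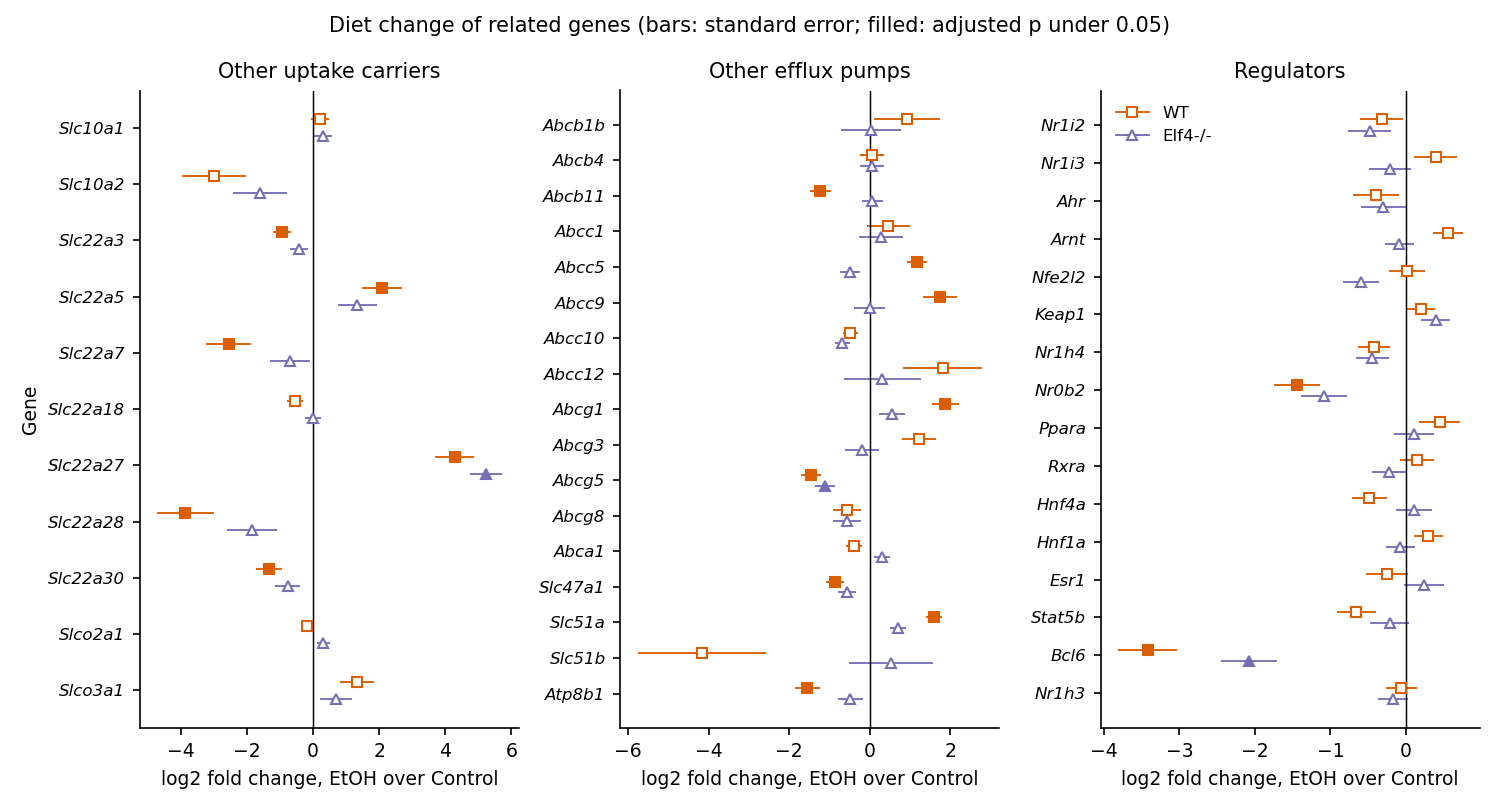
log2 fold change between the EtOH and Control diets (horizontal axis, bars are standard errors) in WT (squares) and Elf4-/- (triangles). The genes are other uptake carriers, 17 other genes listed for efflux and 16 regulators. Filled symbols have an adjusted p under 0.05 (edgeR). Slc22a27 rose in both genotypes (4.28 and 5.22) and Bcl6 fell in both (-3.42 and -2.08).

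Known target genes of these factors were counted beside the transporters. Over all genes 10.8% rose in WT and 1.71% in Elf4-/-. Of 7 CAR and PXR targets, 5 rose in WT and 2 in Elf4-/- (medians 2.61 and 2.50), among them the drug-metabolising Cyp3a11 (log2 2.79 and 2.51). Of 7 NRF2 targets, 4 rose in WT and 2 in Elf4-/- (medians 0.84 and 0.46), with the quinone reductase Nqo1 at 3.80 and 3.47. Of 4 AHR targets 1 rose in each genotype, Cyp1a1 (log2 3.10 and 3.64), with medians of 1.40 and 1.39, and with library totals 4 of the 4 rose in WT. Of 8 PPARA targets, 8 rose in WT and 5 in Elf4-/- (medians 4.48 and 3.21).

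Of 10 male-biased liver genes other than Slco1a1, 7 fell in WT and 5 in Elf4-/- (medians -2.30 and -2.33), with Hsd3b5 at -6.93 and -6.92. Of 7 female-biased genes tested, 6 rose in WT and 5 in Elf4-/-, with Cyp2b9 at 7.92 and 8.22. Their medians were 7.28 and 5.26, and 6.67 in WT with the gene at 0 in a group set to 3 counts per library. All mice were male. Of the 2 transporters named above as female-predominant, Abcc4 rose in both genotypes (log2 5.64 and 5.71). Slco1a4 fell in WT (-1.97) and was not called in Elf4-/- (0.46). The median of all genes was 0.01 in both genotypes. Of all genes 10.8% fell and 10.8% rose in WT, and 1.18% fell and 1.71% rose in Elf4-/-.

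Markers of other liver cells moved with the diet in WT, in both directions. Over all genes 10.8% rose and 10.8% fell there. All 8 endothelial and all 7 Kupffer cell markers and 5 of 7 stellate cell markers rose, and the summed marker levels went from 58.7 to 111.9 up to 318.1 to 387.4 CPM for endothelial cells, from 181.4 to 245.7 up to 565.4 to 628.7 CPM for Kupffer cells, and from 27.6 to 69.0 up to 250.5 to 332 CPM for stellate cells. The summed level of 8 hepatocyte markers was 57899 to 81039 CPM in WT-Control and 38092 to 46762 CPM in WT-EtOH. Alb was the largest part of this sum (means 36003 and 23455 CPM). Of the 8 markers 1 had a positive log2 difference, Cyp2e1 (2475 and 5208 CPM), and the median was -0.73. Of these markers 1 was called higher and 1 lower. Cholangiocyte markers summed to 140.0 to 184.0 CPM in WT-Control and 79.2 to 86.7 CPM in WT-EtOH, with 1 of 6 tested called lower. Erythroid markers summed to 129.8 to 183.6 and 89.3 to 107.6 CPM, with 2 of 5 called lower. In Elf4-/- the cholangiocyte and erythroid sums overlapped between the diets. In Elf4-/- the hepatocyte sum was 68438 to 77018 CPM under Control and 47016 to 60435 CPM under EtOH, and the endothelial sum 164.4 to 167.9 and 163.7 to 249.9 CPM. The Kupffer cell sum was 168.3 to 176.5 and 228.7 to 231.8 CPM and the stellate cell sum 91.6 to 121.4 and 196.8 to 320.1 CPM, so both sums were higher under EtOH without overlap. There 6 of 8 endothelial, 7 of 7 Kupffer and 7 of 7 stellate cell markers had positive log2 differences (medians 0.63, 0.40 and 0.69). Of these, 1 Kupffer cell marker passed the test, against 1.71% of all genes that rose in Elf4-/-. The part of these shifts in the transporter values was not tested.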

How the data were processed

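Liver RNA was extracted with Trizol and sequenced on an Illumina HiSeq (paired ends). The authors deposited 1 table of counts per gene, made with HISAT2 on mm10, SAMtools and HTSeq. Versions, annotation, the strand setting and the handling of reads with several matches are not given in the sources used here.

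The 8 libraries were grouped by the titles of the samples. Genes passing edgeR's filterByExpr were scaled with TMM and fitted with edgeR 4.0.16 (quasi-likelihood, R 4.3.3) over all 8 libraries, with Benjamini-Hochberg adjustment over all 13993 genes and a threshold of 0.05. DESeq2 1.42.0 and other scaling, filters and sample sets were alternatives. The standard error is the log2 fold change divided by the root of F. log2 CPM used a prior count of 2. Exon lengths came from GENCODE M21 and promoters from RefSeq. The fit was tested on simulated counts. The members and gene lists were chosen with earlier results of these data known. All 10 transporters were named, with the called genes of the largest change from each list. The values of 2 genes that the naming rules would give are not reported here.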

Additional observations from a re-analysis of the deposited data

How the results depend on the processing

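The 10 called transporter values kept their direction in all 146 of their repeats under other settings, and 31 of these lost the call. Of all transporter values, 46 repeats changed sign, 41 of them in genotype or interaction values. Leaving out each library in turn changed how many transporters were called, and for diet in WT how many of all genes were called as well. Each such fit leaves 1 group with 1 library, so these counts are not compared. Of the 46, 16 concerned fold changes that the text gives, 11 of them in genotype or interaction values, and only these are listed here. For diet in Elf4-/- the ranges that crossed 0 were -0.55 to 1.09 (Slco1a4), -0.26 to 0.047 (Slco2b1) and -0.44 to 0.13 (Abcc6). The range was -0.047 to 1.03 for Slco1a4 between genotypes under Control. For the interaction the ranges were -1.05 to 0.36 (Slco1a1) and -1.48 to 0.80 (Abcc4). A fit on only the libraries compared called 0 transporters for diet in Elf4-/- and could not give a value for Abcc4 between genotypes under Control, where the filter removed it. DESeq2 called 1 transporter for genotype under EtOH and 1 for the interaction, and the fit without a filter called 1 for genotype under EtOH. The interaction of Abcc4 was -0.44 with library totals. Without Abcc4 the score differences were -1.54 and -0.86. The causes were not tested.

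Same-numbered libraries did not deviate together (correlations from -0.11 to 0.06). The replicate block gave 4, 2, 4, 0, 0 and 0 called transporters for diet in WT, in Elf4-/- and over both genotypes, for genotype under EtOH and Control and for the interaction, where Abcc4 was -0.16. Crossing the numbers in WT-EtOH, chosen after seeing the data along with the score without Abcc4, gave 5, 2, 4, 0, 0 and 0, and -0.13 for Abcc4. For diet in WT, 2639 of all genes were called with the block and 2919 with the crossed numbers, against 3025 in the main fit. For the other comparisons, counts over all genes in these fits are not given here. The same holds for the unfiltered fit and the fit on only the libraries compared. These numbers of called transporters are therefore not read against a background. With 2 libraries a group, the depth limits Abcc4 (2 to 6 counts under Control) and Abcb1a (3 to 43 counts) most.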
